A study of Mus musculus with 24 samples.

Results

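Sox4, Sox5, Sox6, Sox8, Sox9 and Sox11 encode transcription factors of the Sox family, and their expression was followed through the differentiation of 2 kinds of mouse myogenic cells with and without Tead1 and Tead4. The 6 genes were taken by their names from a table of 28109 genes. C2C12 is an immortalised mouse myoblast line, labelled strain C3H. The primary myoblasts (PMs) were isolated from wild type mice of 3–4 weeks of age, labelled strain C57/B6 and named C57BL/6 in the methods of the study. Each was transfected either with siControl, named siLuc in the sample titles, or with a mixture of siRNA pools against both Tead1 and Tead4 (siTead1/4), and no other gene was altered. Day 0 cells were undifferentiated and collected 24 h after transfection. Day 3 and day 6 cells had been kept in 2% horse serum to differentiate, in DMEM for C2C12 cells and IMDM for PMs. With 2 biological replicates for each cell type on each day under each siRNA, there were 12 groups and 24 libraries, with 25453830 to 52784510 gene-assigned reads each. The C2C12 cells are 1 line, the animals behind each PM replicate are not given in the sources used here, and siRNA lowers its targets without removing them.

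Sox proteins bind DNA through an HMG box and bend it, and they act with partner factors that set their targets. They fall into subgroups by sequence: Sox4 and Sox11 are SoxC factors, known for roles in progenitor survival and neuronal differentiation, Sox5 and Sox6 are SoxD factors, which have no activation domain of their own, and Sox8 and Sox9 are SoxE factors, known for roles in cartilage, neural crest and glia. In muscle, Sox6 is known to repress slow fibre genes, and Sox8 and Sox9 have been described in myoblasts and satellite cells. Tead factors bind the MCAT element of many muscle genes.

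The libraries were first compared with their labels. Tead1 and Tead4, the siRNA targets, were lower in both siTead1/4 libraries than in both siControl libraries of the same cell type and day, except that Tead1 at day 6 in C2C12 cells overlapped. In PMs at day 0, Tead4 was at 64.2 and 59.5 CPM (the reads of a gene scaled to the size of its library) with siControl and 13.2 and 11.1 CPM with siTead1/4. In C2C12 cells at day 0 the remaining Tead1 differed between the siTead1/4 libraries, at 28.9 CPM in replicate 1 and 4.50 CPM in replicate 2, against 70.5 and 113 CPM with siControl. By the test described below, Tead4 fell on every day in PMs and at days 0 and 3 in C2C12 cells, and Tead1 fell at days 0 and 3 in PMs, whereas Tead1 did not pass in C2C12 cells on any day (day 0 log2 fold change -2.46, SE 0.66, adjusted p = 0.17). The Tead4 call in C2C12 cells at day 0 was lost when either siControl replicate was left out. That in PMs at day 6 was lost without siTead1/4 replicate 1. Such fits leave 1 library in a group. The myogenic markers were present throughout: all 8 listed genes passed the filter on low counts in both cell types, and their sum, led by Des, the muscle intermediate filament, ran from 983 to 10040 CPM over the C2C12 libraries and from 6036 to 12970 CPM over the PM libraries.

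Sox4 and Sox11 were the only members to pass the threshold in a silencing comparison, so the sequence before their transcription starts is shown. The windows are the 250 bases upstream of the RefSeq start on GRCm38.p6, another build than the mm9 of the counts. Capitals mark CAGCTG, an E-box of the kind bound by myogenic bHLH factors and its own reverse complement, and CATTCC, the core of the MCAT element, which reads GGAATG on the other strand.
Sox4, chr13:28953700-28953949, minus strand: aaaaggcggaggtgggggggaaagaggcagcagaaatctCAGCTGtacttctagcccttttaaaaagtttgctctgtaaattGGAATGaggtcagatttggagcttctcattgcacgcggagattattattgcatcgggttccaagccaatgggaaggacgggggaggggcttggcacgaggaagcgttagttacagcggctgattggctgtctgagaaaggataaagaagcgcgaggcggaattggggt
Sox11, chr12:27342719-27342968, minus strand: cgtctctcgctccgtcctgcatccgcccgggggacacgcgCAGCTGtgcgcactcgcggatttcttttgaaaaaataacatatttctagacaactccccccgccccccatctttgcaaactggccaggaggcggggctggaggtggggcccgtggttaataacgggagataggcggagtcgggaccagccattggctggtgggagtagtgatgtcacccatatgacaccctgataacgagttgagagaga
The Sox4 window held 1 E-box, starting 211 bases before the start site, and 1 MCAT core, 168 bases before it, and these do not overlap. The Sox11 window held 1 E-box, 210 bases before the start, and no MCAT core in these letters. Over all 32851 RefSeq windows of this length, 13% held the E-box and 12.6% the MCAT core on either strand. Of the other members, the Sox5 window held MCAT cores, 2 of the 6 Sox6 windows held 1 MCAT core and 1 of the 6 an E-box, and the Sox8 window held neither motif. The Sox9 window was not analysed here. These are matches of letters, and no binding was measured here.

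The nearest relatives share coding sequence, which bears on counting. The longest identical run between any 2 members was the 48 bases common to the coding parts of Sox4 and Sox11.
Sox4 and Sox11: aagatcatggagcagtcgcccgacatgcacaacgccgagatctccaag
No other pair shared a run above 24 bases. Reads within the 48 bases could not be told apart between Sox4 and Sox11. On mm9, Sox4 is a single exon of 4795 bases at chr13:29040788-29045582 on the minus strand, overlapped on the other strand by the lincRNA Gm17419 and, on its own strand, by a second gene model of the same name in GENCODE. Sox11 is a single exon of 2013 bases at chr12:28025562-28027574, also on the minus strand, with no overlapping gene. Sox5 at chr6:143776945-144730497 and Sox6 at chr7:122614858-123182258 are long genes of many exons on the minus strand, and an exon of Sox5 overlaps 4933415D12Rik. Sox8 lies at chr17:25702837-25707631 on the minus strand and Sox9 at chr11:112643538-112649074 on the plus strand, each with 3 exon blocks. The libraries kept no strand, so reads from antisense partners of Sox4 and Sox5 cannot be told apart from their own. Whether reads over the models that overlap Sox4 were counted is not given in the sources used here, and the effect on the level of Sox4 per length, its place in the order and its share of the SoxC pair was not tested.

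Expression of the 6 genes spanned from near the detection limit to moderate levels, and the order of the members depended on the cell type. Divided by gene length, the siControl C2C12 cells at day 0 had 18.4 CPM per kb of Sox4, 18.2 of Sox9 and 12.7 of Sox11, against 0.597 of Sox8, 0.153 of Sox5 and 0.0234 of Sox6. The leading pair of that order, Sox4 and Sox9, differed by less than the spread between replicates, whereas the gaps below them were wider. In siControl PMs at day 0 the order was Sox11 (22.7 CPM per kb), Sox4 (10.2), Sox9 (8.08), Sox8 (5.42), Sox6 (1.92) and Sox5 (0.0464). By day 3, Sox6 had moved to the second place in PMs with 11.6 CPM per kb, while it remained last in C2C12 cells with 0.0255. Sox5 was the lowest member in PMs on every day, and its counts, 8 to 44 per PM library and 9 to 93 per C2C12 library, limit what can be said of it. In bulk RNA a lower level in each cell and a smaller share of expressing cells cannot be told apart.

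**Figure D1:**
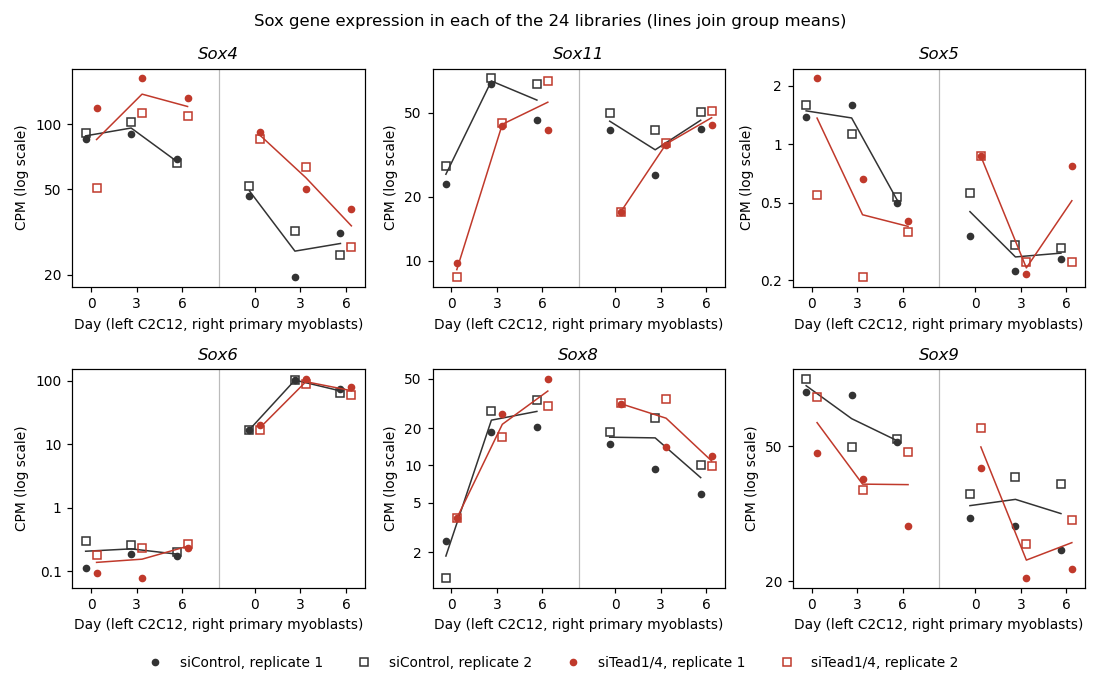
CPM of each Sox gene on a log scale in all 24 libraries, with C2C12 cells on the left and PMs on the right of each panel, days 0, 3 and 6 along the x axis, replicates as filled and open symbols and lines joining group means. Sox6 is at 0.0794 to 0.302 CPM in the C2C12 libraries and at 16.5 to 105 CPM in the PM libraries, and Sox11 is lowest in the siTead1/4 libraries at day 0 in both cell types.

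A gene was called when its adjusted p-value was below 0.05 and its absolute log2 fold change above 1, in edgeR's quasi-likelihood test with Benjamini-Hochberg adjustment over all genes tested. All 6 members passed the filter on low counts in both cell types. With 2 replicates in each group, the tests borrow the spread over all genes of a fit, and the standard errors (SE) below come from it. Groups of 2 libraries can separate without any change, so values said not to overlap describe the libraries and are not a test. The share of all genes without overlap was not counted.

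Upon Tead1/4 silencing, Sox11 fell and Sox4 rose in PMs, each on 1 of the 3 days, and no other member passed the test. In PMs at day 0, Sox11 was at 41.25 and 50.04 CPM with siControl and at 16.9 and 17.0 CPM with siTead1/4, so the groups did not overlap. This was a 2.71-fold fall (log2 fold change -1.44, SE 0.20, adjusted p = 0.0035) and the 1 member called there, where 2.6% of all genes were called. In C2C12 cells at day 0, Sox11 had 23.1 and 28.1 CPM with siControl and 9.75 and 8.38 CPM with siTead1/4. The C2C12 difference was -1.50 on the log2 scale (SE 0.28), without overlap, but its adjusted p of 0.051 missed the threshold, and 0 of the 6 members were called where 0.438% of all genes were (2 members had an unadjusted p below 0.05, as had 1603 of all 15303 genes). It was past the threshold in 4 of the 5 alternative fits with all libraries, and their adjusted p ran from 6.2e-06 to 0.051. The effect on Sox11 in PMs minus that in C2C12 cells was 0.07 (SE 0.35, adjusted p = 1), so no difference between the cell types was detectable.

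After day 0 the siRNAs differed less in Sox11. At day 3 in C2C12 cells, siTead1/4 libraries had 43.5 and 44.7 CPM of Sox11 against 68.7 and 72.6 CPM with siControl, without overlap, but the gene was not called. At day 6 in the same cells the groups overlapped, with 41.4 and 70.9 CPM against 46.3 and 68.6 CPM. Replicate 2 had more Sox11 under both siRNAs there, and also a higher sum of the 6 listed proliferation genes. That sum was 398 CPM with siControl and 654 CPM with siTead1/4, against 90.3 and 114 CPM in replicate 1. The part of this split in the overlap was not tested. In PMs the groups already overlapped at day 3, with 35.1 and 36.1 CPM after silencing and 25.5 and 41.3 CPM in the control. Day 6 PMs had 43.9 and 50.9 CPM of Sox11 with siTead1/4, against 41.9 and 50.3 CPM with siControl. The day 0 call in PMs was lost without either siTead1/4 replicate, with log2 fold changes of -1.43 both times and adjusted p of 0.072 and 0.061.

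Sox4 went the other way in PMs. At day 3 it was at 49.8 and 63.0 CPM with siTead1/4 and at 19.6 and 32.0 CPM with siControl, a 2.18-fold rise (log2 fold change 1.12, SE 0.24, adjusted p = 0.022). It was the 1 member called in that comparison, in which 3.3% of all genes were called. At day 0, the siTead1/4 PMs had 92.0 and 84.8 CPM of Sox4 against 46.6 and 51.4 CPM, which did not overlap and did not pass the test. At day 6 in PMs the groups overlapped, and 0 members were called where 0.743% of all genes were. The day 3 call rests on its libraries: the log2 fold change was 1.13 (adjusted p = 0.077) when all 24 libraries shared 1 fit and 1.28 (adjusted p = 0.059) without siTead1/4 replicate 1, both no smaller than above, but 0.81 (adjusted p = 0.19) without siControl replicate 1 and 0.94 (adjusted p = 0.13) without siTead1/4 replicate 2.

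In C2C12 cells Sox4 was at 119 and 50.3 CPM with siTead1/4 at day 0, on either side of the 85.3 and 91.0 CPM of the control. Its siTead1/4 libraries were above the control at day 3, with 163 and 113 CPM against 89.9 and 102 CPM. At day 6 they were at 133 and 108 CPM against 68.7 and 65.7 CPM, and neither day passed the test. No member was called in C2C12 cells at day 3 or day 6, where 1.27% and 0.0457% of all genes were, and 3 and 1 of the 6 had an unadjusted p below 0.05, as had 2180 and 1064 of all 15303 genes.

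**Figure D2:**
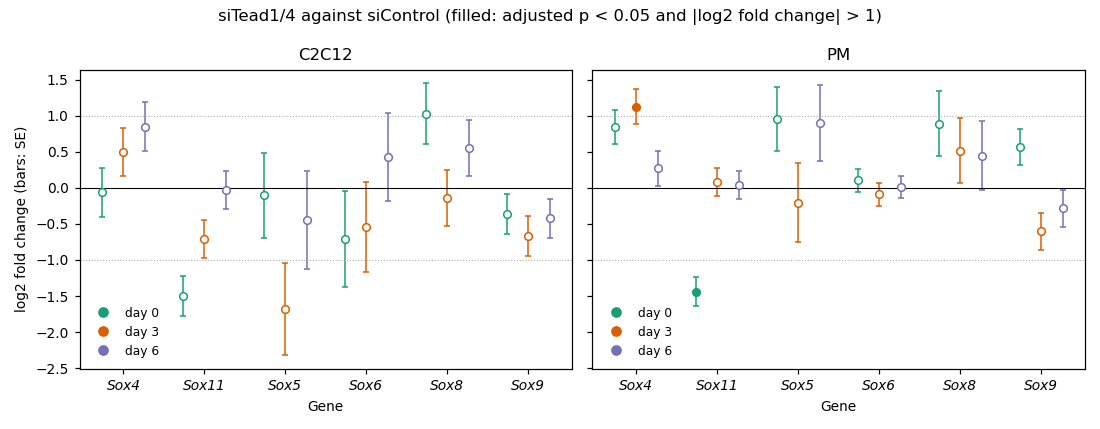
log2 fold change of siTead1/4 against siControl for each Sox gene at days 0, 3 and 6, in C2C12 cells (left) and PMs (right), with bars of 1 SE and filled points for called genes. The only filled points are Sox11 at day 0 (-1.44) and Sox4 at day 3 (1.12) in PMs, and the open Sox11 point at day 0 in C2C12 cells lies at -1.50.

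Set against each other per length, the share of Sox11 in the SoxC pair was lower in both siTead1/4 libraries than in both siControl libraries in every group except PMs at day 6. Sox11 made up 67.8% and 69.9% of the summed Sox4 and Sox11 CPM per kb in the siControl PMs at day 0, and 30.4% and 32.3% in the siTead1/4 PMs. The shares were 39.2% and 42.4% against 16.3% and 28.4% in C2C12 cells at day 0. At day 3 they were 75.6% and 75.5% against 62.7% and 57.7% in PMs, and 64.5% and 63.0% against 38.9% and 48.6% in C2C12 cells. At day 6 the siTead1/4 and siControl ranges overlapped in PMs and did not in C2C12 cells, where they were 42.6% and 60.9% against 61.6% and 71.3%. These shares restate the Sox4 and Sox11 values on a scale within each library and were not tested.

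The remaining members had no call upon silencing in either cell type. Sox6 in PMs was close between siRNAs on every day, with 20.4 and 16.5 CPM against 16.9 and 17.1 CPM at day 0, 105 and 87.8 CPM against 102 and 102 CPM at day 3, and 79.8 and 59.7 CPM against 73.4 and 64.9 CPM at day 6. Sox8 was higher without overlap at day 0 in both cell types. PMs had 31.1 and 31.9 CPM of Sox8 with siTead1/4 against 15.0 and 18.8 CPM, and C2C12 cells 3.74 and 3.77 CPM against 2.48 and 1.24 CPM. The C2C12 log2 fold change of Sox8 was 1.03 (SE 0.42, adjusted p = 0.42). Sox9 was lower after silencing in C2C12 cells on all 3 days without overlap, as at day 3 with 40.1 and 37.3 CPM against 70.9 and 49.6 CPM. In PMs Sox9 was higher at day 0, with 43.0 and 56.5 CPM against 30.8 and 36.1 CPM, and lower at day 3, with 20.5 and 25.7 CPM against 29.2 and 40.6 CPM. Sox5 in C2C12 cells at day 3 had 25 and 9 counts with siTead1/4 and 68 and 56 with siControl, a log2 fold change of -1.68 (SE 0.64, adjusted p = 0.25). It was called with no filter on low counts (adjusted p = 0.012) and without C2C12 siTead1/4 replicate 1 (-2.69, adjusted p = 0.023), and was -1.05 without replicate 2. With all libraries, the silencing effect did not pass the test for a difference between PMs and C2C12 cells for any member at day 0, 3 or 6, and 0.00591%, 1.25% and 0.0354% of all genes did. The Sox4 difference at day 0 was 0.91 (SE 0.45) and depended on single libraries. It ran from 0.44 to 1.67 over the fits without 1 replicate, and was 1.67 without C2C12 siTead1/4 replicate 1.

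Differentiation changed different Sox genes in the 2 cell types. In siControl C2C12 cells Sox8 and Sox11 rose, and in siControl PMs Sox6 rose.

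Sox8 was low in undifferentiated siControl C2C12 cells, at 2.48 and 1.24 CPM (88 and 70 counts). It reached 18.6 and 27.7 CPM at day 3 and 20.6 and 34.0 CPM at day 6. The rise was 12.3-fold to day 3 (log2 fold change 3.62, SE 0.44, adjusted p = 0.00018) and 14.4-fold to day 6 (3.85, SE 0.45, adjusted p = 0.00011). Its size rests on the siControl libraries: it was 21.9-fold and 26.6-fold without C2C12 siControl replicate 1, and 7.32-fold and 8.17-fold without replicate 2. PMs already had 15.0 and 18.8 CPM of Sox8 at day 0. They had 9.29 and 24.1 CPM at day 3 and 5.92 and 10.0 CPM at day 6, so Sox8 was lower at day 6 than at day 0 without overlap, but with an adjusted p of 0.055 (log2 fold change -1.15, SE 0.47). That adjusted p ran from 0.00074 to 0.067 over 5 alternative fits, of which 3 called the gene. The change in PMs minus that in C2C12 cells was -3.68 (SE 0.69, adjusted p = 0.0015) to day 3 and -4.98 (SE 0.71, adjusted p = 0.00010) to day 6. Without C2C12 siControl replicate 2 the day 3 difference was -2.92 and no longer called (adjusted p = 0.052), and the day 6 difference was -4.13. Without C2C12 siControl replicate 1 they were -4.50 and -5.86, and without PM siControl replicate 2 they were -4.34 and -5.23.

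Sox11 rose in C2C12 cells from 23.1 and 28.1 CPM at day 0 to 68.7 and 72.6 CPM at day 3 and 46.3 and 68.6 CPM at day 6. The log2 fold changes were 1.42 (SE 0.27, adjusted p = 0.0024) and 1.12 (SE 0.27, adjusted p = 0.0074). Both calls were lost when either siControl replicate was left out, with log2 fold changes of 1.34 and 1.53 to day 3 and 1.25 and 0.98 to day 6. Sox11 in PMs went from 41.25 and 50.04 CPM at day 0 to 25.5 and 41.3 CPM at day 3 and 41.9 and 50.3 CPM at day 6, and both later days overlapped with day 0. The overlap at day 3 was slight, and its log2 fold change of -0.50 (SE 0.20, adjusted p = 0.049) fell short of the fold threshold only. The change in PMs minus that in C2C12 cells was -1.91 (SE 0.35, adjusted p = 0.0013) to day 3 and -1.15 (SE 0.35, adjusted p = 0.036) to day 6. The latter was called in 2 of 8 fits without 1 replicate, and was lost without either C2C12 siControl replicate and without any of the 4 PM replicates of siControl and siTead1/4.

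In PMs Sox6 went from 16.9 and 17.1 CPM at day 0 to 102 and 102 CPM at day 3 and 73.4 and 64.9 CPM at day 6. The rise was 5.80-fold to day 3 (log2 fold change 2.53, SE 0.16, adjusted p = 7.6e-07) and 3.88-fold to day 6 (1.96, SE 0.16, adjusted p = 2.8e-06), and replicates were close throughout. In C2C12 cells Sox6 had 4 to 17 counts in the siControl libraries of all days. The change in PMs minus that in C2C12 cells was 2.56 (SE 0.50, adjusted p = 0.0021) to day 3 and 2.30 (SE 0.52, adjusted p = 0.0057) to day 6. These differences depend on those few C2C12 counts: without C2C12 siControl replicate 2, whose day 0 library had 17 of them, they were 1.87 (adjusted p = 0.28) and 1.43 (adjusted p = 0.44), and without PM siControl replicate 1 the day 6 difference had an adjusted p of 0.052.

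**Figure D3:**
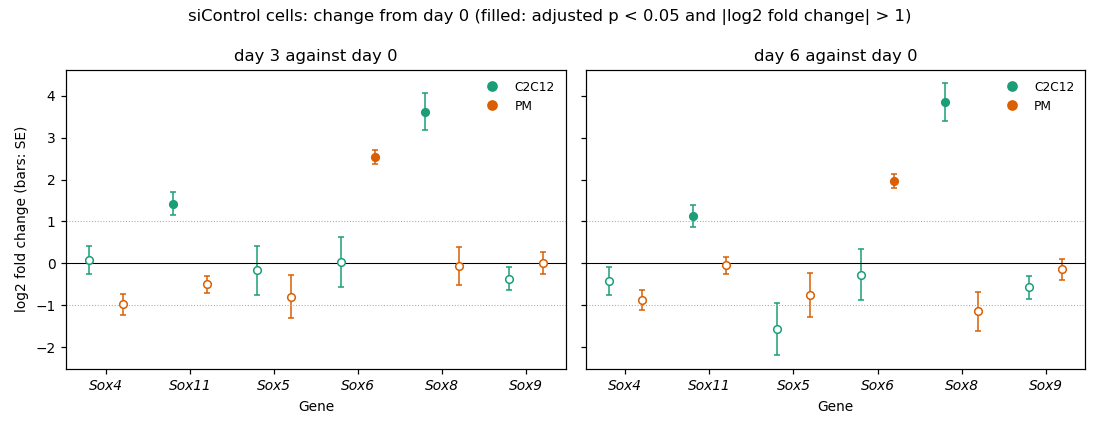
log2 fold change from day 0 to day 3 (left) and day 6 (right) in siControl cells for each Sox gene, C2C12 cells and PMs side by side, with bars of 1 SE and filled points for called genes. Sox8 and Sox11 are filled in C2C12 cells on both days and Sox6 in PMs on both days, and no member is filled in both cell types.

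The members' counts stand here beside those of all genes. In C2C12 cells 2 of 6 members were called to day 3, where 28.7% of all genes were, and 2 to day 6, where 31.1% were. In PMs 1 of 6 was called on each day, where 32.3% and 35.5% of all genes were. Between day 6 and day 3, 0 members were called in either cell type, against 0% of all genes in C2C12 cells and 2.8% in PMs. The C2C12 count of 0 genes came from edgeR, with 406 genes at an unadjusted p below 0.05 and 19 called by DESeq2. For the difference of the change between PMs and C2C12 cells, 3 members were called to each day, where 11.2% and 12.7% of all genes were. Of the members without a call, Sox4 in PMs went from 46.6 and 51.4 CPM at day 0 to 19.6 and 32.0 CPM at day 3 and 31.3 and 24.6 CPM at day 6, without overlap. Its log2 fold changes of -0.98 (SE 0.24, adjusted p = 0.0052) and -0.88 (SE 0.24, adjusted p = 0.0092) fell short of the fold threshold only. Sox5 in C2C12 cells had 49 and 90 counts at day 0 and 26 and 16 at day 6, a log2 fold change of -1.56 (SE 0.63, adjusted p = 0.067). It was called with the replicate number as a block (-1.63, adjusted p = 0.038), in one fit of all 24 libraries (adjusted p = 0.035) and with no filter on low counts (adjusted p = 0.0048). Sox9 was not called in either cell type, and its PM libraries at days 3 and 6 overlapped with day 0. In siControl C2C12 cells Sox9 was lower without overlap on both later days. It went from 72.0 and 78.6 CPM at day 0 to 70.9 and 49.6 CPM at day 3 and 51.5 and 52.3 CPM at day 6.

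Between the cell types, Sox6 stood apart from the other members. Undifferentiated siControl PMs had 75.0 times as much Sox6 as C2C12 cells (log2 fold change 6.23, SE 0.32, adjusted p = 2.7e-10), rising to 443 times at day 3 (8.79, SE 0.34, adjusted p = 3.9e-11) and 369 times at day 6 (8.53, SE 0.35, adjusted p = 7.4e-11). The day 0 ratio was 143 without C2C12 siControl replicate 2 and 55.0 without replicate 1. All 12 PM libraries had 605 to 4903 counts of Sox6 and all 12 C2C12 libraries 3 to 17. The comparison sets a cell line of 1 strain, grown in DMEM, against primary cells of another, grown in IMDM on matrigel-coated dishes. Line, strain, medium, coating and culture history therefore cannot be told apart.

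Sox8 changed its place between the cell types over time. At day 0, PMs had 15.0 and 18.8 CPM of Sox8 against 2.48 and 1.24 CPM in C2C12 cells, a 9.25-fold higher level (log2 fold change 3.21, SE 0.52, adjusted p = 0.00011). At day 3 the groups overlapped. At day 6 PMs were lower, at 5.92 and 10.0 CPM against 20.6 and 34.0 CPM (-1.77, SE 0.48, adjusted p = 0.0079), a call that was lost without C2C12 siControl replicate 2 (-1.40, adjusted p = 0.067) or PM siControl replicate 1 (-1.46, adjusted p = 0.069). The other SoxE gene, Sox9, a regulator of cartilage formation, was lower in PMs at day 0, with 30.8 and 36.1 CPM against 72.0 and 78.6 CPM (-1.17, SE 0.28, adjusted p = 0.0031). Per length, Sox8 rose from 4.36% and 2.06% of the SoxE pair at day 0 in siControl C2C12 cells to 34.7% and 46.3% at day 6. In siControl PMs it went from 39.3% and 40.9% to 24.1% and 25.7%.

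Sox4 was lower in PMs at day 3, with 19.6 and 32.0 CPM against 89.9 and 102 CPM (-1.89, SE 0.33, adjusted p = 0.00018). At day 0 it was also lower without overlap, with 46.6 and 51.4 CPM against 85.3 and 91.0 CPM. The day 0 difference (-0.85, SE 0.32, adjusted p = 0.042) fell short of the fold threshold. With the replicate number as a block, Sox4 was called at day 0 (-1.03, adjusted p = 0.024). At day 6 it was at 31.3 and 24.6 CPM against 68.7 and 65.7 CPM (-1.26, SE 0.32, adjusted p = 0.0052). Sox11 was lower in PMs at day 3 only (-1.08, SE 0.25, adjusted p = 0.0021), and at day 0 was higher without reaching the fold threshold. Sox5 was lower in PMs at day 0 (-1.74, SE 0.57, adjusted p = 0.023) and day 3 (-2.35, SE 0.61, adjusted p = 0.0050), on 8 to 20 counts in each of those siControl PM libraries against 49 to 90 in C2C12 cells. In all, 4, 4 and 3 of the 6 members were called at days 0, 3 and 6, where 26.8%, 29.8% and 24.9% of all genes were. The single-library fits changed some of these calls: Sox5 at day 0 was lost without any 1 of the 4 siControl replicates, Sox5 and Sox11 at day 3 without PM siControl replicate 1, and Sox4 at day 6 without PM siControl replicate 2.

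**Figure D4:**
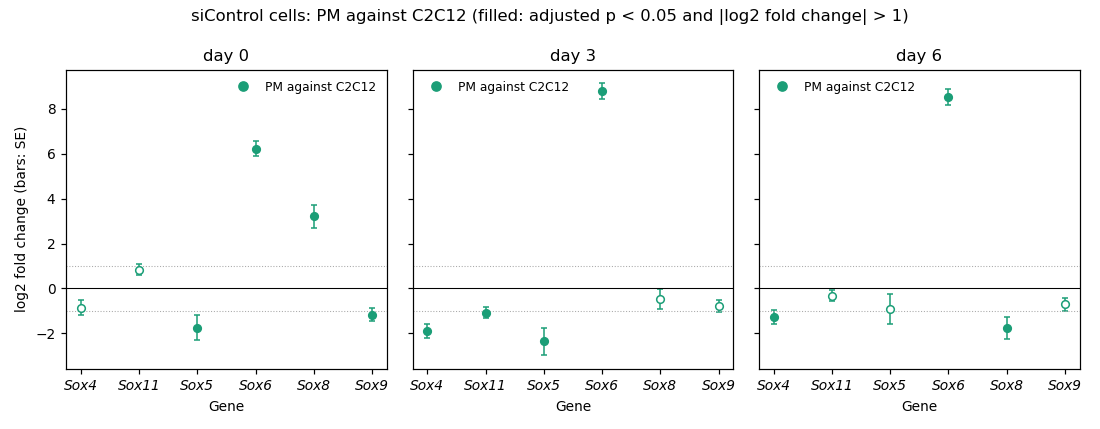
log2 fold change of siControl PMs against siControl C2C12 cells for each Sox gene at days 0, 3 and 6, with bars of 1 SE and filled points for called genes. Sox6 lies between 6.23 and 8.79 on all days, and Sox8 goes from 3.21 at day 0 to -1.77 at day 6.

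**Figure D5:**
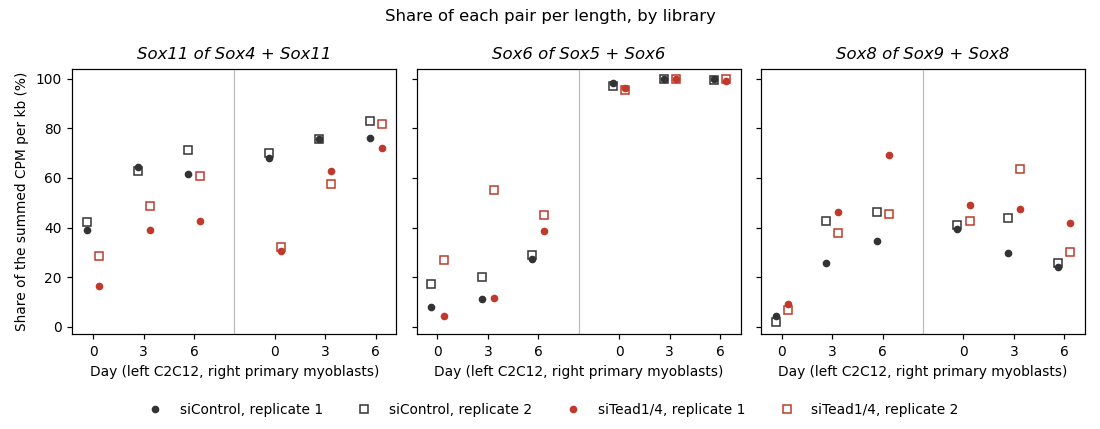
Share of Sox11 in the SoxC pair, Sox6 in the SoxD pair and Sox8 in the SoxE pair, in percent of the summed CPM per kb, for each library by cell type, day and siRNA. Sox11 falls from 67.8% and 69.9% to 30.4% and 32.3% upon silencing in PMs at day 0, and Sox6 makes up over 95% of its pair in every PM library.

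The rest of the family was also measured. The table held 18 Sox genes including Sry, of which 12 were not among the members above. Sox12, Sox13, Sox18 and Sox2 passed the filter in both cell types, Sox10 and Sox30 in PMs, and Sox3, Sox7, Sox15, Sox17, Sox21 and Sry in neither. Sox12, the third SoxC gene, was higher in PMs on all days, by 2.18 (SE 0.26, adjusted p = 3.2e-06) at day 0 and 2.76 (SE 0.27, adjusted p = 6.0e-07) at day 6 on the log2 scale. It fell in C2C12 cells from 8.56 and 6.40 CPM at day 0 to 3.26 and 3.72 CPM at day 3 (-1.14, SE 0.32, adjusted p = 0.018). Sox13, the third SoxD gene, fell in C2C12 cells to day 3 (-1.40, SE 0.44, adjusted p = 0.029) and day 6 (-2.11, SE 0.46, adjusted p = 0.0044). Sox2, a pluripotency and neural progenitor factor, fell in C2C12 cells from 35 and 48 counts at day 0 to 10 and 7 at day 3 and 9 and 3 at day 6 (-2.32, SE 0.53, adjusted p = 0.0066, and -2.69, SE 0.56, adjusted p = 0.0036). None of these other Sox genes was called upon silencing in either cell type.

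Sox10, the SoxE factor that defines neural crest and Schwann cells, followed the replicate number in PMs. It had 52 to 124 counts in the 6 PM libraries of replicate 1, 2 to 12 in those of replicate 2 and 0 or 1 in every C2C12 library. Foxd3, a neural crest factor, had 22 to 43 counts in replicate 1 and 1 to 19 in replicate 2. Summed over 9 Schwann and neural crest markers, led by Erbb3, which muscle cells also express, replicate 1 of PMs had a median of 299 CPM and replicate 2 of 244 CPM, and replicate 1 was higher in 6 of 6 groups. The 9 endothelial markers, led by Cdh5, also had more in replicate 1 of PMs, with 5.34 to 17.6 CPM against 2.96 to 5.47 CPM in replicate 2 and at most 1.77 CPM in C2C12 cells. Upon silencing in PMs, 1 of the 7 endothelial markers tested was called higher at day 0, where 1.5% of all genes were, and 0 at days 3 and 6. Their median log2 fold changes were 0.43, -0.74 and -0.99 on these days. The part of these markers in the Sox results upon silencing was not tested. Every PM group held 1 library of each number, so the numbers were balanced over siRNA and day, and the part of these markers in the spread of Sox8 or Sox9 between PM replicates was not tested.

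Genes known to respond to these factors in other settings were counted beside them. Of 14 cartilage genes known as targets of Sox9 with Sox5 and Sox6, 7 passed the filter in C2C12 cells and 9 in PMs. Upon silencing 0 were called in C2C12 cells on any day, where 0.438%, 1.27% and 0.0457% of all genes were at days 0, 3 and 6. In PMs 1 was called, at day 3, where the shares of all genes were 2.6%, 3.3% and 0.743%. This was Col9a1, a chain of cartilage collagen, with 61 and 55 counts with siTead1/4 and 0 and 2 with siControl. The median log2 fold change of the list in PMs at day 3 was 0.22, beside 0.01 over all genes. Against C2C12 cells, siControl PMs had 4, 5 and 6 of 9 tested cartilage genes called higher and 0 lower at days 0, 3 and 6, where 16.3%, 17.2% and 15.7% of all genes were called higher, with medians of 1.36, 2.15 and 2.13 when genes at or under 3 counts in a group are set to their bound, beside 0.03, 0.03 and 0.02 over all genes. On these days 2, 3 and 3 of the 9 had a group at or under 3 counts. A gene that passes the filter only through PMs can come out higher only. These counts are therefore not a like comparison with the shares of all genes. At day 6 the cartilage genes called higher included Col11a2 (4.50, SE 0.45, adjusted p = 1.0e-06) and Comp, a matrix protein of cartilage and tendon (4.05, SE 0.60, adjusted p = 5.5e-05). The 8 chondrocyte markers were low in sum, at 1.92 to 3.72 CPM in C2C12 libraries and 7.30 to 67.1 CPM in PM libraries, led by Col11a2. Of the defining ones, Matn1 and Acan were at 0 to 2 counts in all C2C12 libraries, and in PMs Acan was at 1 to 30 counts in replicate 1 and 0 to 6 in replicate 2. Of 8 fibroblast markers, led by the collagen gene Col3a1, Tcf21 was at 0 counts in every library and 7 were tested in PMs. Their sum went from 851 and 778 CPM at day 0 to 6440 and 4727 CPM at day 6 in siControl PMs, with 5 of 7 called higher (median log2 fold change 3.07) where 20.2% of all genes were. In siControl C2C12 cells 4 of the 6 tested were called higher to day 3 (median 1.77) and 3 to day 6 (median 1.48). There 16% and 17.1% of all genes were called higher. Between siControl PMs and C2C12 cells at day 6, 3 of the 7 were higher and 1 lower (median 1.56), and at day 3, 2 were higher and 4 lower (median -2.37), where 9.22% of all genes were called lower at day 6 and 12.6% at day 3. On each of these days 1 of the 7 fibroblast markers had a group at or under 3 counts. Upon silencing 2 of them, Dcn and Lum, fell in PMs at day 6 and 0 in any other comparison of siRNAs. Both calls were lost without PM siTead1/4 replicate 1, a fit that leaves 1 library in that group. The 6 macrophage markers summed to at most 9.33 CPM in any library. All 6 proliferation genes fell from day 0 to days 3 and 6 in the siControl cells of both types, where 12.7% and 14% of all genes were called lower in C2C12 cells and 14.9% and 15.3% in PMs, and 0 were called upon silencing. The part of the chondrocyte, fibroblast, macrophage and proliferation markers in the results was not tested.

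Of 10 slow muscle genes, which Sox6 is known to repress or which mark slow fibres, 9 were tested in each cell type. Silencing lowered 0, 3 and 1 of them at days 0, 3 and 6 in C2C12 cells, where 0.301%, 1.08% and 0.0327% of all genes were called lower, and raised 0. In PMs it lowered 1, 3 and 1, where 1.1%, 1.2% and 0.279% of all genes were called lower, and raised 0. These counts depend on single libraries. Over all genes, few or none of the C2C12 silencing calls at days 3 and 6 held when either siControl replicate was left out. Without PM siTead1/4 replicate 1 the PM call at day 6 was lost. Such fits leave 1 library in a group. The list medians at day 3 were -1.41 in C2C12 cells and -1.01 in PMs, beside 0.01 and 0.01 over all genes. Myh7, the slow myosin heavy chain, fell in both (-4.04, SE 0.51, adjusted p = 0.013 in C2C12 cells and -3.02, SE 0.45, adjusted p = 0.0036 in PMs), as did Myl2, a slow myosin light chain (-6.75, SE 0.69, adjusted p = 0.0093, and -2.12, SE 0.37, adjusted p = 0.0081). Myh7b also fell in C2C12 cells and Tnni1 in PMs. Sox6 itself was not called upon silencing. Between siControl PMs and C2C12 cells, 7 of the 9 slow genes were higher in PMs at day 0 and 0 lower, 0 were higher and 4 lower at day 3 (Myh7, Myh7b, Myl2 and Tpm3), and 0 were higher and 1 lower at day 6 (Tpm3). The shares of all genes called higher were 16.3%, 17.2% and 15.7% on these days, and called lower 10.5%, 12.6% and 9.22%. Of 10 fast muscle genes, all 10 were higher in PMs at day 0, 7 at day 3 and 6 at day 6, with 0 lower. Upon silencing at day 3, 1 fast gene, the calcium store protein Casq1, fell in C2C12 cells, and the median of the fast list was -1.05 there and -0.10 in PMs. In PMs at day 3 the fast myosin Myh4 rose (2.02, SE 0.28, adjusted p = 0.0026) and Myh1 and Myh2 fell (-2.33, SE 0.21, adjusted p = 0.00053, and -1.89, SE 0.32, adjusted p = 0.0068).

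Of 4 genes known as SoxC targets in other tissues, 3 were tested, Dcx, Tubb3 and Tead2. The other, Map2, had no entry of that name and was not looked up under another. Of the 3 tested, 0 were called upon silencing in either cell type on any day. At most 3.3% of all genes were called there, so that a count of 0 among 3 genes is near the background. Dcx, a microtubule protein of migrating neurons, had 1217 and 1583 counts in the siTead1/4 PMs at day 3 and 118 and 693 with siControl, without overlap. In siControl C2C12 cells 1 of the 3 was called higher and 1 lower to day 3 and again to day 6, where 16% and 17.1% of all genes were called higher and 12.7% and 14% lower. Dcx was the higher one, going from a single count in each day 0 library to 40 and 156 counts at day 3, then 81 and 42 counts at day 6. Tubb3, a neuronal tubulin, was the lower one (-2.03, SE 0.58, adjusted p = 0.019 to day 3). Tead2, a Tead factor that was not silenced, fell in siControl PMs to day 3 (-1.17, SE 0.14, adjusted p = 4.5e-05). Of the 3 genes, 1 was called lower in siControl PMs to day 3 and 2 to day 6, with 0 higher (medians -0.96 and -1.19). There 14.9% and 15.3% of all genes were called lower.

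The genes with the pattern most like each member were found by Pearson's r of mean log2 CPM over the 12 groups, among 16926 genes. For Sox6 these were Ldoc1l, Ccl27a and Fbxo27 (r = 0.998, 0.998 and 0.996), and for Sox4 Tanc1, Sema5a and Ctnnd1 (0.973, 0.961 and 0.954). Sox8 was most like Dtx4, C78339 and Nobox (0.947, 0.938 and 0.935), and Sox11 most like Egln3, Bach1 and Rep15 (0.943, 0.943 and 0.942). For Sox5 these were Aldh3a1, Fam3c and Gap43 (0.934, 0.909 and 0.903), and for Sox9 Has1, Syn1 and Gap43 (0.924, 0.924 and 0.920). Among the members themselves, Sox5 and Sox9 were most alike (r = 0.881) and Sox4 and Sox6 least (r = -0.810). The groups fall into 2 cell types and share their library preparation, and a difference between the cell types alone can give a high r.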

How the data were processed

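RNA-seq of C2C12 cells and PMs was made with TruSeq RNA v2 libraries, which select polyadenylated RNA and do not mark strand. Per the labels, reads were processed with CASAVA 1.8.2, TopHat2 2.0.10, Bowtie2 2.1.0 and HTSeq 0.6.1 on mm9, and the authors deposited raw read counts per gene beside DESeq2 1.8.1 normalised values, which were not used here. The deposited table also gives a gene length (other unit, bases), used for levels per kb. Its 36 columns for 12 unlisted libraries were not used. The read length is not given in the sources used here.

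Counts were tested with edgeR 4.0.16 in R 4.3.3 (filterByExpr, TMM, quasi-likelihood test, Benjamini-Hochberg adjustment), with 1 mean per group in a fit of the 12 libraries of a cell type, or of all 24 for comparisons of cell types. The genes tested numbered 15303 in C2C12 cells, 16144 in PMs and 16926 together. CPM are on the TMM scale of all 24 libraries. With 2 replicates per group, p-values rest on spread shared across genes, and no exact test over 2 against 2 samples can reach 0.05. In data simulated for silencing at day 3, edgeR recovered 158 of 162 changed genes in PMs and 139 of 171 in C2C12 cells. It made 4 and 6 false calls there. The changed genes left after filtering had estimated log2 changes of a median size of 2.04 in PMs and 1.99 in C2C12 cells. For the silencing effect in PMs minus that in C2C12 cells at day 3, edgeR recovered 119 of 166, with 6 false calls. Recovery of smaller effects, such as those of Sox4 and Sox11 upon silencing, was not tested.

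The members and gene lists were chosen with earlier results of these data known. Named genes are the members, the other Sox genes, Tead1 and Tead4, the 3 genes most like each member, and listed genes that were called or had the largest changes. Some listed markers are also named for their levels or counts, and overlapping genes for their place. Alternatives were DESeq2 1.42.0 without shrinkage, its size factors in edgeR, no filter on low counts, a replicate block, all 24 libraries in one fit, and leaving out each replicate. Some listed marker genes are not reported here.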

Additional observations from a re-analysis of the deposited data

Results flagged for a closer look

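The change of 3 Sox genes upon differentiation differed between PMs and C2C12 cells, by a test of the difference itself in siControl cells with edgeR's quasi-likelihood test and Benjamini-Hochberg adjustment. For Sox8 the log2 change in PMs minus that in C2C12 cells was -3.68 (SE 0.69, adjusted p = 0.0015) from day 0 to day 3 and -4.98 (SE 0.71, adjusted p = 0.00010) to day 6. For Sox6 it was 2.56 (SE 0.50, adjusted p = 0.0021) and 2.30 (SE 0.52, adjusted p = 0.0057). For Sox11 it was -1.91 (SE 0.35, adjusted p = 0.0013) and -1.15 (SE 0.35, adjusted p = 0.036). Single libraries decide several of these: without C2C12 siControl replicate 2, Sox6 was at 1.87 (adjusted p = 0.28) and 1.43 (adjusted p = 0.44) and Sox8 to day 3 at -2.92 (adjusted p = 0.052). Without PM siControl replicate 1, Sox6 to day 6 was at 2.21 (adjusted p = 0.052), and Sox11 to day 6 was called in 2 of the 8 fits that left out 1 replicate.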

How the results depend on the processing

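Of 120 fold changes of the 6 genes over all comparisons, 25 were called. Alternatives were followed for 42, those called in any fit or past the fold threshold. Of the 25, 24 were also called with DESeq2, its size factors, no filter on low counts, the replicate block and, within a cell type, all 24 libraries in one fit. The exception was Sox4 upon silencing in PMs at day 3 (adjusted p = 0.077 in one fit). Only 12 of the 25 were called in every fit without 1 replicate, and 0 changed sign. Of the other named genes, 18 results lost a call in an alternative with all replicates and 76 in a fit without 1 replicate. The alternatives with all replicates kept a call of these genes in 1017 fits, over 227 results, and lost it in 18 fits. Causes were not tested.

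For silencing in C2C12 cells at day 0, the members called went from 0 to 1 with DESeq2, the replicate block or one fit and to 2 with no filter, and at day 3 from 0 to 1 with no filter. In PMs at day 3 they went from 1 to 0 in one fit. For siControl PMs, day 6 against day 0 went from 1 to 2 with DESeq2, no filter or the block, and day 6 against day 3 from 0 to 1 with no filter. All genes called for silencing in C2C12 cells went from 67, 195 and 7 at days 0, 3 and 6 to 256, 603 and 143 with DESeq2, 480, 1055 and 387 with no filter and 245, 690 and 88 in one fit, and at day 6 to 12 with the block. C2C12 day 6 against day 3 went from 0 to 19 with DESeq2 and 102 with no filter. In PMs, silencing went from 420 to 204 at day 0 in one fit, from 532 to 804 at day 3 with no filter and 312 in one fit, and from 120 at day 6 to 224 with DESeq2, 335 with no filter, 290 with the block and 60 in one fit. PM day 6 against day 3 went from 452 to 709 with no filter, 732 with the block and 164 in one fit. The difference of silencing between cell types went from 1, 212 and 6 to 32, 494 and 60 with DESeq2, 88, 853 and 146 with no filter and 5, 327 and 34 with the block.

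Without 1 replicate, members called ranged from 0 to 1 for silencing at days 0 and 3 in both cell types, 1 to 2 and 1 to 3 for C2C12 days 3 and 6 against day 0, 1 to 2 for both in PMs, 2 to 5 for PMs against C2C12 cells at day 3, 0 to 1 for the difference of silencing at day 0, and 1 to 4 and 1 to 3 for the difference of change to days 3 and 6. All genes called ranged for silencing in C2C12 cells from 0 to 359, 2 to 814 and 0 to 65, and in PMs from 120 to 171, 163 to 388 and 0 to 57. They ranged from 1337 to 4801 and 1610 to 5171 for C2C12 days 3 and 6 against day 0, 5 to 294 for PM day 6 against day 3, 0 to 209, 23 to 1010 and 0 to 148 for the difference of silencing, and 1075 to 2316 and 1240 to 2552 for the difference of change.

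The replicate numbers are not stated to mark a shared batch. Deviations of same-numbered libraries correlated at -0.203 to 0.525 (median 0.0859) over 15 pairs of groups in C2C12 cells and at 0.0695 to 0.539 (median 0.219) in PMs. The highest PM values were those between siControl and siTead1/4 of the same day, at 0.414, 0.443 and 0.539 for days 0, 3 and 6. All other PM pairs were at most 0.337. In C2C12 cells the same-day values were -0.142, 0.0951 and 0.525. The main tests did not use this pairing. With the replicate block, 38 of the 42 fold changes kept their side of the threshold and 4 became called, namely Sox11 upon silencing in C2C12 cells at day 0 (-1.48, adjusted p = 0.041), Sox5 in C2C12 cells at day 6 against day 0 (-1.63, adjusted p = 0.038), Sox8 in PMs at day 6 against day 0 (-1.19, adjusted p = 0.0098) and Sox4 in PMs against C2C12 cells at day 0 (-1.03, adjusted p = 0.024). Depth limits Sox5 in both cell types and Sox6 in C2C12 cells, which rest on few counts.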
